A study of Mus musculus with 8 samples.

Results

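Kinesins are microtubule motor proteins encoded by the Kif genes, and 35 of them were measured among 15598 genes in cultured mouse hippocampal neurons with and without the RNA-binding proteins Rbfox1 and Rbfox3. Members were all genes whose deposited symbol was Kif, a number and optional letters, with no symbol joined by a comma to a neighbour. By role they were 15 transport motors, 11 mitotic kinesins, the microtubule depolymerase Kif2a and 8 other kinesins. Kinesin exons were those with the same symbols in the authors' tables of cassette exons, which gave 7 exons of 5 genes among 551 exons.

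Cultures were transduced at 9 days in vitro with AAV2/9, an adeno-associated virus vector whose synapsin I promoter drives expression in neurons, received siRNA for 4 days from day 10 and gave RNA at 14 days in vitro. The control carried EGFP with non-targeting siRNA, and the knockdown carried EGFP with siRNA against Rbfox1 and Rbfox3. The cytoplasmic rescue received the same Rbfox1 and Rbfox3 siRNA with Flag-Rbfox1_C_siMt, and the nuclear rescue received them with Flag-Rbfox1_N_siMt, so all 4 groups carried both a virus and siRNA. Each group had 2 samples, 8 in all, but the deposited tables give 1 value per group, and both rescues are set against the same knockdown value.

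Rbfox1 and Rbfox3 bind the RNA word GCAUG. In the nucleus they steer alternative splicing through sites in introns, and cytoplasmic Rbfox1 binds 3′ untranslated regions. Kinesins carry mitochondria, vesicles and receptors along the microtubules of axons and dendrites, whereas the mitotic kinesins build and move the spindle of dividing cells. Neurons also vary their motors by alternative exons in the stalk and tail, outside the motor domain that walks on the microtubule.

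The exons listed by the authors for kinesin genes were 9, 15, 24, 39, 39, 106 and 108 nt long. Of the 7, 6 were coding and a multiple of 3 in length, so that their skipping keeps the reading frame, and the 106 nt exon of Kif1c lay in the 5′ untranslated region. Length and frame were not summarised for the other listed exons, so neither can be called particular to kinesin exons. The 5 short coding exons are shown because the results on splicing turn on them. Capitals mark the exon, and the lower case letters are 15 bases of the neighbouring exons in a GENCODE M21 transcript (GRCm38), 5′ to 3′ on the sense strand, so they are flanks in the spliced RNA and not introns.
Kif21a 15 nt exon (GRCm38 chr15:90948324-90948338, minus strand): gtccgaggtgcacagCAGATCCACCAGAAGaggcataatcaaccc
Kif13a 39 nt exon (GRCm38 chr13:46780626-46780664, minus strand): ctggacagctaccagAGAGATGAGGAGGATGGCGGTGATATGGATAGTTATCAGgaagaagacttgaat
Kif3a 9 nt exon (GRCm38 chr11:53590717-53590725, plus strand): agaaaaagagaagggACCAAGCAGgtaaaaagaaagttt
Kif1a 24 nt exon (GRCm38 chr1:93026832-93026855, minus strand): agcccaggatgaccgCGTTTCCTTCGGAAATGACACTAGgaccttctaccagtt
Kif21a 39 nt exon (GRCm38 chr15:90976471-90976509, minus strand): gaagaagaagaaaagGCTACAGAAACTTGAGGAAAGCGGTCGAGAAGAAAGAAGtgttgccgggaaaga

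None of these 5 exons holds an in-frame stop codon. In transcripts with an annotated start, the Kif21a 15 nt exon begins at codon 1269 of 1628, the Kif21a 39 nt exon at codon 558 of 1672, the Kif3a 9 nt exon at codon 409 of 701 and the Kif1a 24 nt exon at codon 1234 of 1697. The Kif13a exon was matched in an annotated transcript whose coding start is missing, so its place in the protein is not given. GENCODE holds each exon in 1 or 2 transcripts and its skipping in 1 to 3.

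The knockdown was visible in the targeted genes. Rbfox1 measured 25.7 FPKM (fragments scaled by the length of the transcript and by sequencing depth) in control, 1.94 in knockdown, 16.1 in the cytoplasmic rescue and 38.2 in the nuclear rescue. Rbfox3 measured 12.4, 1.59, 1.59 and 1.53 FPKM in the same order. Rbfox2, which was not targeted, measured 35.4, 42.1, 33.2 and 17.7 FPKM. The cultures were mixed: the 5 measured markers of neurons summed to 1004 FPKM in control, 953 in knockdown, 946 in the cytoplasmic rescue and 962 in the nuclear rescue, and 4 markers of astrocytes to 1036, 1035, 903 and 913 FPKM. The neuron sum hides opposite moves. From control to knockdown Tubb3 went from 291 to 408 FPKM and Snap25 from 456 to 323, neither of them called. Of the 5 neuron markers, 4 had a log2 fold change below 0 in knockdown, whereas 55.1% of all genes lay above 0. Markers of microglia were lower in knockdown, with a sum of 2.70 FPKM against 4.999 in control. Of the 4 markers 2 were called, where 2.35% of all genes were. C1qa held most of both sums, and Csf1r, Cx3cr1 and Aif1 were each under 1 FPKM in both groups. In knockdown and control, 3 markers of vascular cells summed to 2.96 and 2.59 FPKM, with none called. One of them, Kdr, measured 0.284, 0.489, 0.271 and 0.425 FPKM in the 4 groups and was called lower in the cytoplasmic rescue than in knockdown (q = 0.0299 in the authors' deposited table).

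The motors of axonal and dendritic transport made up most kinesin RNA, and their levels lay close together in the 4 groups. The 35 genes summed to 769.4 FPKM in control, 775.4 in knockdown, 763.1 in the cytoplasmic rescue and 772.6 in the nuclear rescue. The 15 transport motors held 90.9%, 89.7%, 89.6% and 89.9% of these sums. In control, 11 members were at or above 10 FPKM and 7 were under 1 FPKM.

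**Figure D1:**
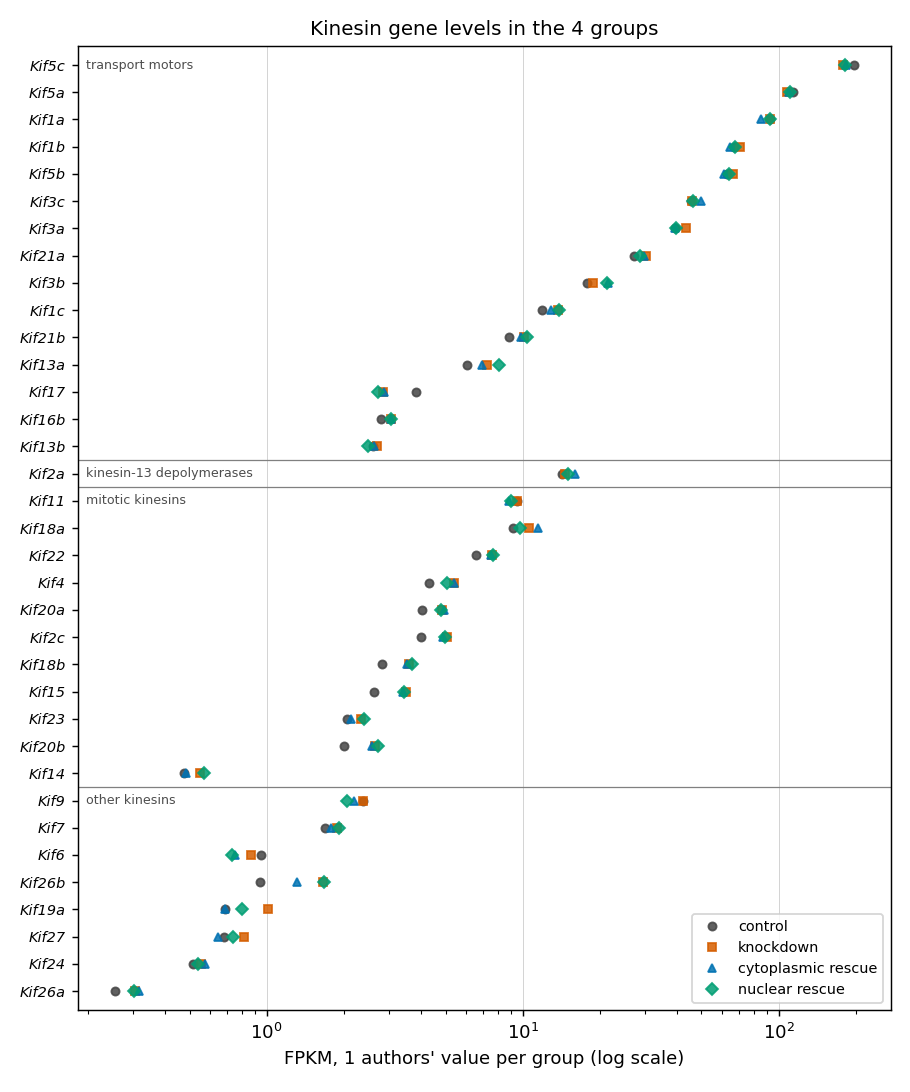
FPKM (log scale) of each of the 35 kinesin genes, 1 point per group (the authors' group value, without error bars), ordered by role and by the control level. Kif5c lies highest at 179 to 196 FPKM and Kif26a lowest at 0.256 to 0.317, and for most genes the 4 points lie close together.

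The kinesin-1 heavy chains, the classical anterograde motors for mitochondria and vesicles, were the most abundant group. Kif5c, enriched in neurons, measured 196 FPKM in control, 179 in knockdown, 184 in the cytoplasmic rescue and 182 in the nuclear rescue. Kif5a, the neuronal heavy chain, measured 114, 108, 110 and 111 FPKM, and the ubiquitous Kif5b measured 62.7, 66.2, 61.4 and 63.8. Together the 3 heavy chains held 48.5% of the kinesin FPKM in control and 45.6% in knockdown. In the authors' deposited table the log2 fold change of Kif5c in knockdown was -0.13 and its implied standard error 0.26, so its difference was smaller than its error. The implied standard error is the deposited log2 fold change divided by the deposited test statistic. It is the authors' model error and not a spread measured between the 2 samples.

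The Kif1 motors carry synaptic vesicle precursors (Kif1a), mitochondria and synaptic vesicle precursors (Kif1b) and other vesicles (Kif1c). Kif1a measured 92.6 FPKM in control, 92.6 in knockdown, 85.5 in the cytoplasmic rescue and 92.9 in the nuclear rescue. Kif1b measured 67.0, 70.7, 64.5 and 67.6 FPKM, and Kif1c 11.9, 13.8, 12.96 and 13.9 FPKM. Kif1c was lower in control than in the other 3 groups, without passing the test (q = 1 in the authors' deposited table for knockdown).

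The kinesin-2 motors work as a complex of Kif3a, Kif3b and the adaptor Kifap3, and Kif3c can take the place of Kif3b. Kif3a measured 39.6 FPKM in control, 43.5 in knockdown, 39.4 in the cytoplasmic rescue and 39.9 in the nuclear rescue. Kif3b measured 17.9, 18.9, 21.6 and 21.3 FPKM, so it was highest in both rescues, with p = 0.187 and p = 0.269 against knockdown in the authors' deposited tables. Kif3c measured 45.6, 46.0, 49.7 and 46.5 FPKM and Kifap3 75.7, 75.4, 78.6 and 79.5 FPKM. The deposited locus of Kif3c is 1.49 times as long as the RefSeq gene, so its value may hold reads of neighbouring genes. Kif17, the homodimeric kinesin-2 that carries NMDA receptor subunits in dendrites, measured 3.84, 2.84, 2.88 and 2.73 FPKM. It was the member with the lowest knockdown to control ratio, its log2 ratio being -0.43 (implied standard error 0.18), but it did not pass after adjustment (p = 0.0165, q = 0.465 in the authors' deposited table). In the rescues its log2 fold changes against knockdown were 0.02 and -0.06, both smaller than their implied standard errors of 0.19.

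Among the remaining transport motors, Kif13a, which carries cargo of the trans-Golgi network and endosomes, measured 6.08 FPKM in control, 7.24 in knockdown, 6.95 in the cytoplasmic rescue and 8.07 in the nuclear rescue. The authors' deposited table gives a log2 fold change of 0.25, an implied standard error of 0.13 and p = 0.0514 for knockdown against control. Kif21a, a kinesin-4 that limits microtubule growth, measured 27.3, 30.4, 29.7 and 28.9 FPKM. Its relative Kif21b measured 8.86, 10.2, 9.88 and 10.4 FPKM. Kif16b, a motor of early endosomes, stayed between 2.79 and 3.07 FPKM and Kif13b between 2.50 and 2.70. Of the 15 transport motors none passed the threshold in any comparison, where 2.35%, 0.506% and 0.11% of all genes did. Their median log2 fold changes were 0.08 in knockdown, -0.04 in the cytoplasmic rescue and 0.00 in the nuclear rescue. Kif2a, which takes microtubules apart from their ends, measured 14.3, 14.6, 16.0 and 15 FPKM.

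Across all members, 1 of 35 kinesin genes passed q below 0.05 in knockdown against control in the authors' deposited table, against 2.35% of all genes. That member was higher in knockdown, and 0.776% of all genes passed in that direction. None passed in the cytoplasmic rescue against knockdown, where 0.506% of all genes did, and none in the nuclear rescue against knockdown, where 0.11% did. At an unadjusted deposited p below 0.05 there were 8 members in knockdown (22.9%, against 10.9% of all genes), 2 in the cytoplasmic rescue (5.71%, against 5.33%) and 0 in the nuclear rescue (against 1.05%). In knockdown 29 of 35 members lay above a log2 fold change of 0, with a median of 0.16, and over all genes 55.1% lay above 0 with a median of 0.02. The median of the members was -0.04 in the cytoplasmic rescue and -0.01 in the nuclear rescue, beside -0.06 and -0.02 over all genes. In knockdown 27 members were within 1.2-fold of their control level, and the implied standard errors ran from 0.13 to 0.43 on the log2 scale.

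**Figure D2:**
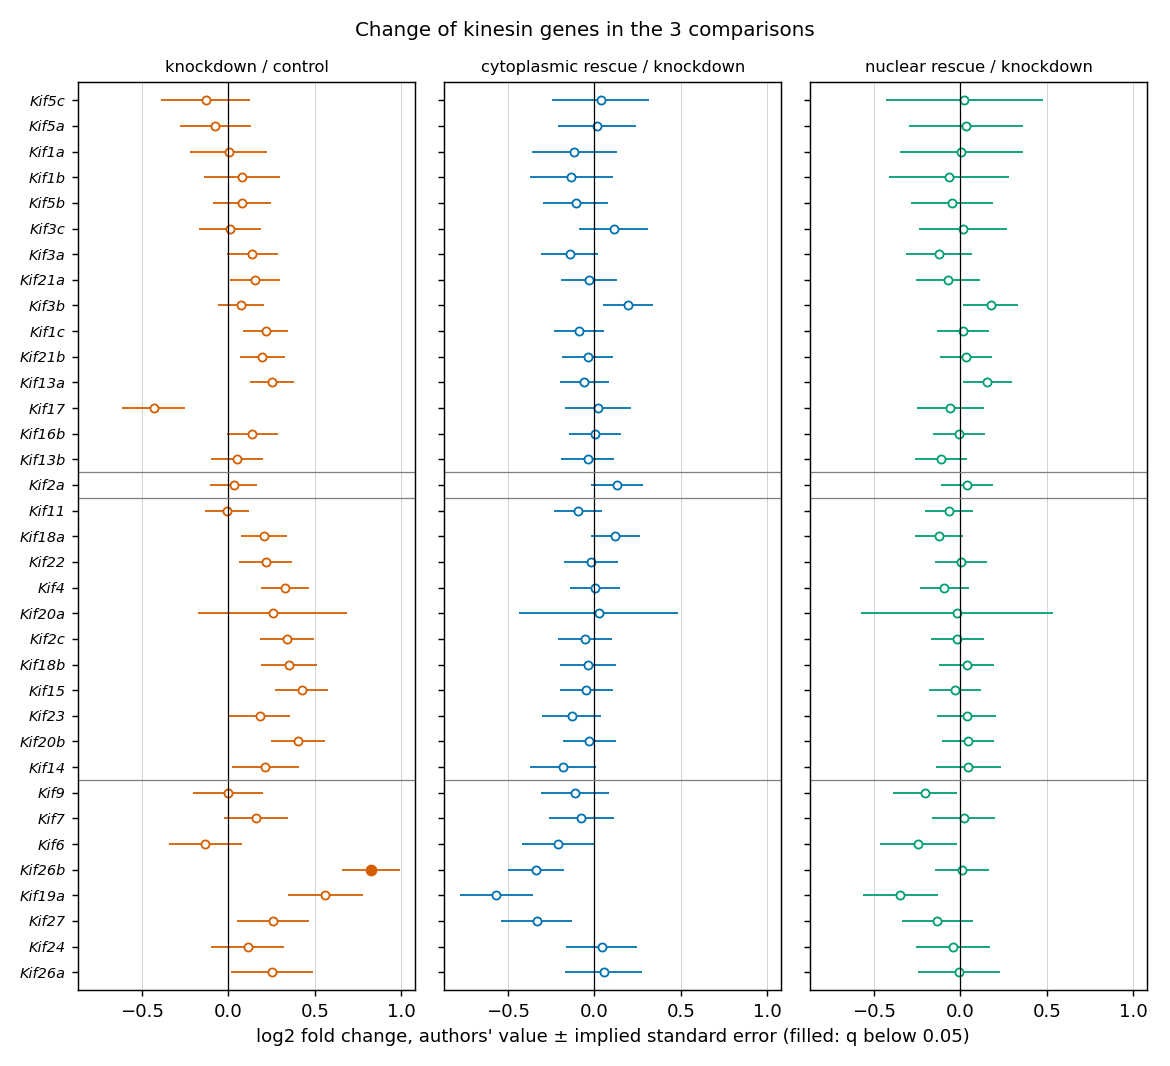
Log2 fold change of the 35 kinesin genes in the 3 comparisons, the authors' value with the implied standard error as bars, and filled points for q below 0.05. Kif26b in knockdown (0.82) is the only filled point, and Kif19a lies at 0.56 in knockdown and -0.57 in the cytoplasmic rescue.

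The member that rose in knockdown was Kif26b (mm9 chr1:180459256-180862988), an atypical kinesin known from kidney development in mice. It measured 0.938 FPKM in control, 1.66 in knockdown, 1.32 in the cytoplasmic rescue and 1.67 in the nuclear rescue, so control was lowest and the cytoplasmic rescue lay between. In the authors' deposited table it was 1.77-fold higher in knockdown, a log2 ratio of 0.82 with an implied 95% interval of 0.49 to 1.15 and q = 3.05e-04. In the cytoplasmic rescue the log2 fold change against knockdown was -0.34 with an implied standard error of 0.16, which did not pass (p = 0.0377, q = 0.697 in the authors' deposited table). In the nuclear rescue it was 0.01 with an implied standard error of 0.16. A test of the difference between these 2 changes, with their errors added, gave an unadjusted p = 0.124, the smallest of any member. No kinesin gene differed between the rescues by that test, which is conservative and which 0.026% of all genes passed. The related Kif26a measured 0.256, 0.305, 0.317 and 0.303 FPKM. Kif26b was under 2 FPKM in every group, and on a scale of log2(FPKM + 1) its change in knockdown stayed under 0.5. Genes of myelin, which oligodendrocytes make, stood higher in the same groups. Mbp measured 11.6 FPKM in control, 22.6 in knockdown, 20.1 in the cytoplasmic rescue and 21.1 in the nuclear rescue, and Mag 0.538, 1.95, 1.37 and 1.79 FPKM. Both were called higher in knockdown in the authors' deposited table, and their part in the result was not tested. In bulk RNA, more cells of a type and more RNA per cell cannot be told apart, nor can fewer cells and less RNA per cell.

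The summed level of the mitotic kinesins was higher in all 3 groups with Rbfox siRNA than in control. None of the genes passed the threshold in any comparison, where 2.35%, 0.506% and 0.11% of all genes did. The 11 genes summed to 47.6 FPKM in control, 55.7 in knockdown, 55.3 in the cytoplasmic rescue and 54.1 in the nuclear rescue. In knockdown 10 of 11 lay above a log2 fold change of 0, with a median of 0.26 and a range of -0.01 to 0.42, and 5 had an unadjusted p below 0.05, where over all genes 55.1% lay above 0 and 10.9% had such a p. In the rescues against knockdown the medians were -0.04 and -0.02, and none of the 11 reached an unadjusted p below 0.05.

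Kif15, a spindle motor that acts beside Kif11, had the smallest p among them. It measured 2.62 FPKM in control, 3.52 in knockdown, 3.40 in the cytoplasmic rescue and 3.44 in the nuclear rescue, with p = 0.0051 and q = 0.235 in the authors' deposited table. Kif20b, which acts in cytokinesis, measured 1.999, 2.64, 2.59 and 2.72 FPKM. The chromokinesin Kif4 measured 4.31, 5.41, 5.42 and 5.07 FPKM. Kif18b, a motor at microtubule plus ends, measured 2.83, 3.61, 3.52 and 3.70 FPKM, and the depolymerase Kif2c 4.00, 5.05, 4.87 and 4.99 FPKM. Each of these 5 genes was lowest in control, and their knockdown log2 fold changes of 0.33 to 0.42 all missed the threshold on q. They were named for their small p in knockdown, so a difference from control there follows from that choice. The other 3 groups are set against the same control value, so a low control value bears on all of them. Kif11, the motor that pushes spindle poles apart, measured 9.53, 9.47, 8.87 and 9.04 FPKM and so did not follow these 5 genes. The others ran from 0.475 FPKM for Kif14 to 9.20 for Kif18a in control. Kif20a had the largest implied standard error, 0.43, and the deposited locus under its name is 6.14 times as long as the RefSeq gene, so its value may hold reads of neighbouring genes.

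Proliferation genes outside the kinesin family also had a higher sum in the 3 groups with Rbfox siRNA. The 14 genes of that list summed to 205.6 FPKM in control, 231.3 in knockdown, 232.1 in the cytoplasmic rescue and 233.0 in the nuclear rescue, and 13 of 14 lay above 0 in knockdown with a median log2 fold change of 0.25. None passed q below 0.05, where 2.35% of all genes did. An unadjusted p below 0.05 was reached by 6, beside the same 55.1% and 10.9% over all genes. Mki67, the Ki-67 antigen of cycling cells, measured 5.22, 6.63, 6.08 and 6.46 FPKM. Aurkb, the mitotic kinase Aurora B, measured 4.76, 6.16, 5.91 and 6.18 FPKM, and Bub1, a kinase of the spindle checkpoint, 2.48, 3.25, 3.24 and 3.28 FPKM. A pair of kinesins whose symbols fall outside the rule, Cenpe of the kinetochore and the minus-end motor Kifc1, measured 2.05 and 1.93 FPKM in control and 2.72 and 2.68 in knockdown. The part of dividing cells in the level of the mitotic kinesins was not tested.

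**Figure D3:**
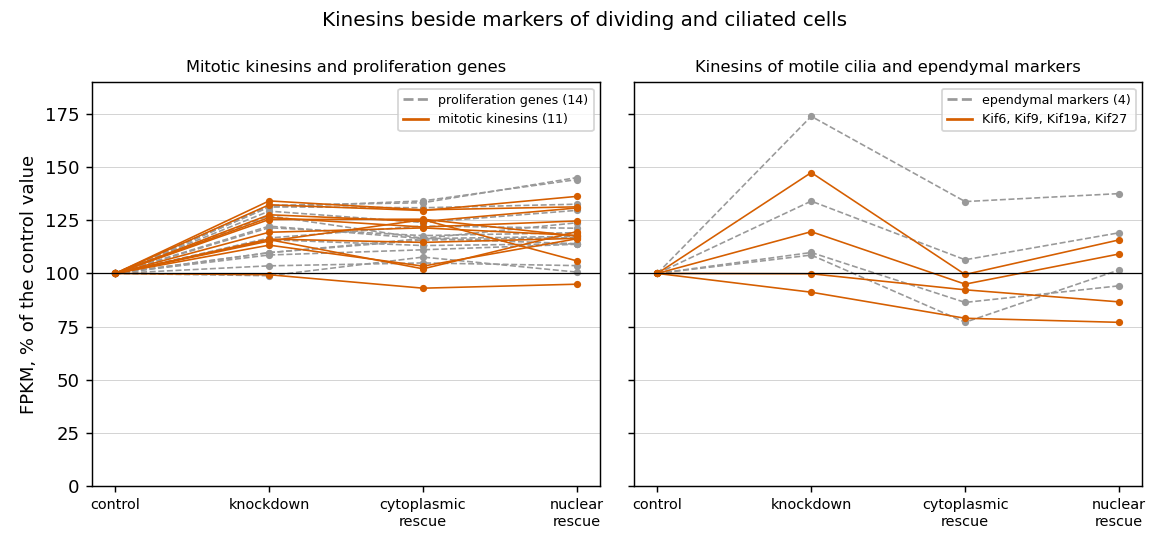
FPKM as percent of the control value in the 4 groups, with 1 line per gene: mitotic kinesins beside proliferation genes (left) and kinesins of motile cilia beside ependymal markers (right), from 1 authors' value per group without error bars. On the left nearly all lines stay above 100% after control. On the right Kif19a, Kif27 and the 4 ependymal markers peak in knockdown, whereas Kif6 and Kif9 do not.

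Several of the other kinesins serve cilia. Kif19a, which trims the length of motile cilia, measured 0.689 FPKM in control, 1.02 in knockdown, 0.686 in the cytoplasmic rescue and 0.798 in the nuclear rescue. It had the smallest p of any member in both rescue comparisons, but it passed in none of the 3. Its log2 fold changes in the authors' deposited tables were 0.56 in knockdown (p = 0.010, q = 0.348), -0.57 in the cytoplasmic rescue (p = 0.0074, q = 0.292) and -0.35 in the nuclear rescue (p = 0.107). Kif27, needed for ependymal cilia in mice, measured 0.679, 0.812, 0.645 and 0.741 FPKM and was likewise highest in knockdown. Kif6 measured 0.951, 0.867, 0.750 and 0.732 FPKM and Kif9, of motile cilia and sperm tails, 2.39, 2.38, 2.20 and 2.07, both lower in the rescues than in knockdown with p of 0.268 to 0.564. Markers of ependymal cells, the ciliated cells that line the ventricles, summed to 17.7, 22.1, 17.1 and 19.1 FPKM. All 4 lay above 0 in knockdown and below 0 in both rescues. For markers and kinesins alike, the 3 changes of a gene share its knockdown value, so their directions are linked. Over all genes 55.1% lay above 0 in knockdown, 32.5% in the cytoplasmic rescue and 43.6% in the nuclear rescue. Ccdc153 was called higher in knockdown (2.60 to 4.53 FPKM, q = 0.0193 in the authors' deposited table). Ccdc153 and Tmem212 were lowest in control, and Foxj1 and Rsph1 in the cytoplasmic rescue. The vascular marker Kdr, given above, was highest in knockdown and lowest in the cytoplasmic rescue, as Kif19a was. Pdgfrb was also highest in knockdown, at 2.19, 2.40, 2.19 and 2.19 FPKM in the 4 groups, without being called. Pecam1 measured 0.109 FPKM in control and 0.0733 in knockdown and has no value in the rescues. The part of ependymal or vascular cells in the values of the ciliary kinesins was not tested. Kif7, a Hedgehog regulator at the tip of the primary cilium, measured 1.69, 1.89, 1.79 and 1.91 FPKM from a deposited locus 3.05 times the RefSeq length, and Kif24, which acts at the basal body, stayed between 0.515 and 0.573.

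Partners of the motors were read beside them. Of the 37 listed light chains, adaptors and kinesins with other symbols, 33 were measured and none passed q below 0.05 in any of the 3 comparisons, where 2.35%, 0.506% and 0.11% of all genes did. The medians of their log2 fold changes were -0.01, -0.02 and 0.02. Klc1, the main kinesin light chain by level here, measured 333.9 FPKM in control, 323.9 in knockdown, 372.6 in the cytoplasmic rescue and 336.4 in the nuclear rescue. Klc2 measured 32.3, 24.9, 29.1 and 28.4 FPKM (p = 0.0056 and q = 0.247 for knockdown in the authors' deposited table). The smallest p of this list in a rescue belonged to Arl8a, a small GTPase that links lysosomes to kinesins, at 25.4 FPKM in the cytoplasmic rescue and 34.6 in knockdown (p = 0.0017 and q = 0.112 in the authors' deposited table). All 23 genes of dynein and dynactin, the retrograde motor and its activator, were measured and none passed. The smallest p among them in knockdown belonged to the dynactin subunit Actr1b, at 96.0 FPKM in control and 77.2 in knockdown (q = 0.547 in the authors' deposited table). Dctn1, the dynactin subunit that binds microtubules, measured 31.6, 36.6, 35.7 and 42.7 FPKM, and the dynein light chain Dynlt3 measured 111.0, 97.3, 84.6 and 85.1. In the nuclear rescue the smallest p was that of the light chain Dynll2, at 40.8 FPKM there and 31.4 in knockdown (p = 0.0118 and q = 0.385 in the authors' deposited table).

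The question for splicing was which kinesin exons the authors listed after loss of Rbfox1 and Rbfox3, and which they listed when either form of Rbfox1 was returned. Kinesin exons were 4 of 214 listed in knockdown against control, 1 of 150 in the cytoplasmic rescue against knockdown and 5 of 318 in the nuclear rescue against knockdown. The tables hold only exons whose inclusion ratio moved by at least 0.1, so a kinesin exon that is missing from a table has no value here. The reads on the junctions of each listed exon were set against each other by a two-sided Fisher's exact test of inclusion against skipping, adjusted over the exons of the table by Benjamini-Hochberg. That test compares the pooled libraries of 2 groups and does not measure the spread between samples, and since the same reads fed the authors' listing it gives no independent support. By it 3 of the 4 kinesin exons passed in knockdown, where 42.5% of listed exons did, 1 of 1 in the cytoplasmic rescue against 33.3%, and 4 of 5 in the nuclear rescue against 59.4%. Each kinesin exon had 150 to 1789 junction reads per group.

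**Figure D4:**
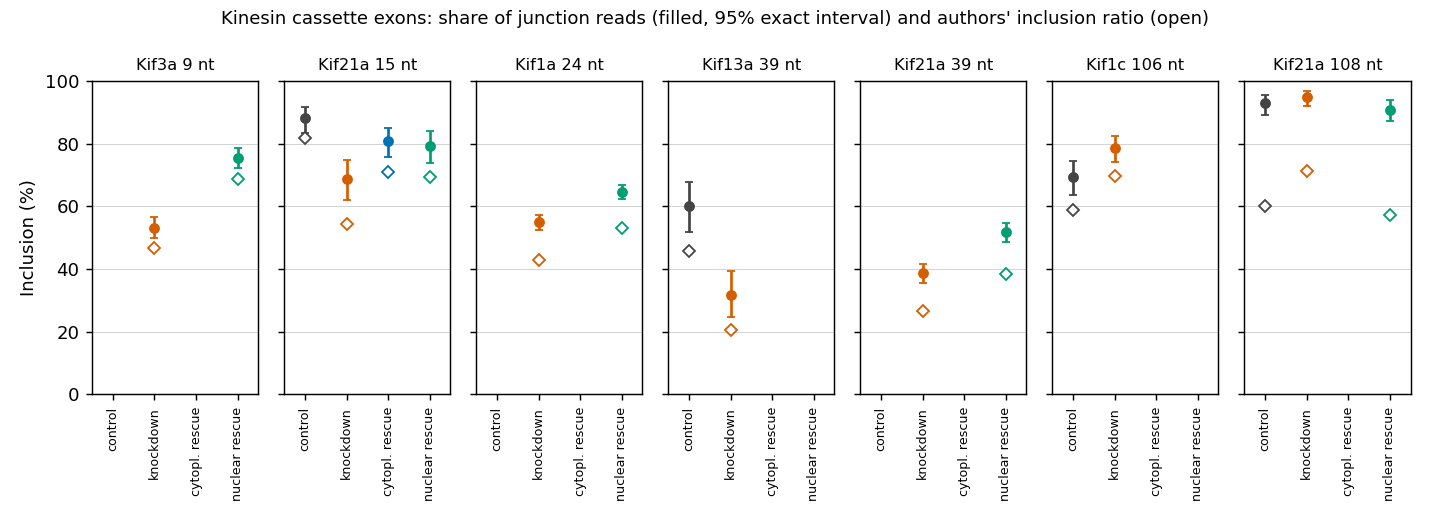
Inclusion in percent of the 7 kinesin exons by group: filled points are the share of junction reads that join the exon, with 95% exact intervals for counting error only, and open diamonds are the authors' inclusion ratio as a percentage. The share sets both inclusion junctions against the skipping junction, and it lies above the authors' ratio throughout. The Kif21a 15 nt exon is the only one with values in all 4 groups, at 88.1% in control, 68.7% in knockdown, 80.7% in the cytoplasmic rescue and 79.2% in the nuclear rescue.

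The 15 nt exon of Kif21a (mm9 chr15:90778755-90778769), shown above, was the only kinesin exon listed in all 3 tables. Its deposited inclusion ratio was 0.817 in control, 0.543 in knockdown, 0.711 in the cytoplasmic rescue and 0.695 in the nuclear rescue. The share of junction reads that joined the exon was 88.1% in control (95% exact interval 83.5 to 91.9), 68.7% in knockdown (62.0 to 74.9), 80.7% in the cytoplasmic rescue (75.6 to 85.1) and 79.2% in the nuclear rescue (73.9 to 84.0). Inclusion thus fell in knockdown and was higher again in both rescues, without reaching the control share in either. By Fisher's exact test the adjusted p was 3.11e-06 in knockdown, 0.0144 in the cytoplasmic rescue and 0.0213 in the nuclear rescue. Skipping reads numbered 30, 66, 55 and 55 in the 4 groups.

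The rescues held unequal Rbfox1 RNA, at 16.1 FPKM in the cytoplasmic and 38.2 in the nuclear rescue, with Rbfox2 at 33.2 and 17.7. The part of these levels in splicing was not tested. The rescues did not differ detectably in inclusion of the Kif21a 15 nt exon. The nuclear minus cytoplasmic difference was -1.46 percentage points, with a 95% Newcombe interval of -8.18 to 5.22 and an adjusted p of 0.966 by Fisher's exact test over the 45 exons listed for both, of which 31.1% passed. Against control the nuclear rescue was lower by Fisher's exact test over 65 shared exons (adjusted p = 0.0381, difference -8.90 points, interval -15.2 to -2.52), where 16.9% passed. The cytoplasmic rescue missed the threshold over 48 shared exons (adjusted p = 0.231, difference -7.44 points, interval -13.5 to -1.26), where 6.25% passed. The inclusion reads were unequal between the sides of the exon: the junction to the downstream exon held 212, 139, 225 and 202 reads, and the junction to the upstream exon 11, 6, 5 and 8. On the upstream junction alone the share was 26.8% in control, 8.33% in knockdown, 8.33% in the cytoplasmic rescue and 12.7% in the nuclear rescue, and neither rescue passed (adjusted p = 1 and p = 0.622 by Fisher's exact test).

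The 39 nt exon of Kif13a (mm9 chr13:46875995-46876033) was listed in knockdown only. Its deposited inclusion ratio was 0.457 in control and 0.206 in knockdown. Reads on the upstream junction, the downstream junction and the skipping junction numbered 36, 54 and 60 in control and 27, 25 and 112 in knockdown. The inclusion share fell from 60.0% (51.7 to 67.9) to 31.7% (24.7 to 39.4), with an adjusted p of 5.24e-06 by Fisher's exact test, and both inclusion junctions passed alone. The level of the gene, 6.08 and 7.24 FPKM in the same groups, did not pass the test.

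The 5′ untranslated exon of Kif1c (106 nt, mm9 chr11:70515948-70516053) was the other exon to pass in knockdown, in the opposite direction. Its deposited inclusion ratio was 0.589 in control and 0.697 in knockdown, and its junction share rose from 69.4% (63.8 to 74.6) to 78.5% (74.1 to 82.5), with an adjusted p of 0.0229 by Fisher's exact test. The call was lost when the inclusion reads were halved (adjusted p = 0.0531) and on the upstream junction alone (adjusted p = 0.134), both by the same exact test.

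The 108 nt exon of Kif21a (mm9 chr15:90783142-90783249) was listed in 2 tables, and its junction reads passed the test in neither. The deposited ratio was 0.600 in control, 0.713 in knockdown and 0.571 in the nuclear rescue. The junction share was 92.8%, 94.9% and 90.9%, with adjusted p of 0.376 in knockdown and 0.0948 in the nuclear rescue by Fisher's exact test. The share moved in the direction of the ratio, by less. Skipping reads numbered 20, 18 and 28.

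A further 3 exons were listed in the nuclear rescue alone, and all 3 were more included there than in knockdown. The 9 nt exon of Kif3a (mm9 chr11:53404219-53404227), the kinesin-2 subunit, had a deposited inclusion ratio of 0.468 in knockdown and 0.686 in the nuclear rescue. Its junction share rose from 53.2% (49.9 to 56.5) to 75.5%, and its skipping reads went from 416 to 165 (adjusted p = 7.28e-19 by Fisher's exact test). The gene measured 43.5 FPKM in knockdown and 39.9 in the nuclear rescue.

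The 24 nt exon of Kif1a (mm9 chr1:94923409-94923432), the motor of synaptic vesicle precursors, had a deposited inclusion ratio of 0.428 in knockdown and 0.530 in the nuclear rescue. Its junction share rose from 54.9% to 64.6% on 1789 and 1785 reads (adjusted p = 1.73e-08 by Fisher's exact test), while the gene measured 92.6 and 92.9 FPKM. The 39 nt exon of Kif21a (mm9 chr15:90806902-90806940) had a deposited inclusion ratio of 0.267 in knockdown and 0.383 in the nuclear rescue. Its share rose from 38.6% to 51.7% on 1052 and 1080 reads (adjusted p = 7.42e-09 by Fisher's exact test). These 3 exons were not listed in the other comparisons, so they have no control or cytoplasmic rescue value. Whether the rescues differ in them could not be tested.

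Of the 7 exons, 5 had lower inclusion in knockdown than in each group they were set against. The Kif1c 106 nt exon and the Kif21a 108 nt exon had a higher deposited ratio in knockdown, and the second of these did not pass on junction reads. None of the 5 genes passed the test on FPKM. Among all listed exons, 56.5% were less included in knockdown than in control while 59.3% were more included in the cytoplasmic rescue and 45.9% in the nuclear rescue than in knockdown.

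The Rbfox word stood in the 3′ untranslated regions of kinesin genes at a share close to that of all genes. On the sense strand of the longest annotated 3′ untranslated region (GENCODE M21), 21 of 35 kinesin genes (60.0%) held GCATG, the DNA spelling of the Rbfox word, against 60.4% of 13018 genes. The longer TGCATG, whose matches are a subset of these, was held by 17 kinesin genes (48.6%) against 36.2%. Matches of GCATG per kilobase were 0.960 in kinesin genes and 0.979 over all genes, at median lengths of 1174 and 1173 nt. Kif26b held 9 in 6972 nt, Kif5a 8 in 2759 nt, Kif1b 5 in 4449 nt and Kif3b 5 in 3235 nt. Per kilobase these were 1.29 in Kif26b and 2.90 in Kif5a. Kif17 held none in 107 nt and Kif21a none in 1174 nt. A match is a description of the letters and not a site of binding, and the introns, where Rbfox proteins act on splicing, were not searched.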

How the data were processed

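Total RNA depleted of ribosomal RNA was sequenced as unstranded paired-end reads of 50 nt, per the labels' protocols, so reads of overlapping genes on opposite strands cannot be told apart. The tools CASAVA and Cufflinks and the build mm9 are named in the submitters' processing notes, and SpliceTrap in the names of the deposited splicing tables, without tool versions. The 3 deposited expression tables hold 1 FPKM value per group, made by the authors from both samples, with the authors' log2 fold change (a score column, in which genes at 0 carry a stand-in number), a test statistic, and the authors' p-value and q-value. The 3 deposited splicing tables hold an inclusion ratio per group (a fraction computed by the authors), a splice change score, a p-value, counts of junction reads as the authors deposited them, and a coverage signal whose normalization the authors do not state. A further 39 numeric columns were not used.

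A test over samples had been planned with limma, but the tables hold no value per sample. The authors' q below 0.05 was therefore used for genes, and no pseudocount was added to the deposited fold changes. The implied standard error is the absolute ratio of log2 fold change and test statistic. The rescues were compared by a normal test on their difference with both errors added, adjusted by Benjamini-Hochberg over all genes; both share the knockdown value, so their errors are not independent. Junction reads were tested by a two-sided Fisher's exact test (SciPy 1.17.1) over all exons of a table, after the scripts were tested on simulated data. Intervals for shares are 95% Clopper-Pearson and those for differences Newcombe; they cover counting error only. The total depth of each sample is unknown. The share sets the reads of both inclusion junctions against those of the skipping junction, so it weighs inclusion more than skipping. A read across a very short exon can be counted at both of its junctions. That can make the intervals for shares and differences too narrow and the exact p-values too small. Nothing in the labels says that the samples of a group were separate cultures.

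The kinesin genes, role lists and marker lists were chosen with earlier results of these data known. Named genes were those with q below 0.05, the 10 smallest p in knockdown and the 5 smallest in each rescue, the 5 highest in control, all members with a listed exon and the 3 smallest p of each pathway list; other genes were named for their role after their values were seen. The kinesins of motile cilia were picked in that way. Coordinates in mm9 are the authors', written from 1; sequences were matched in GENCODE M21 (GRCm38) by the lengths of the exon, its neighbours and its introns. Part of the oligodendrocyte marker list is not reported here.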

Additional observations from a re-analysis of the deposited data

How the results depend on the processing

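Of 41 alternative values, 36 kept their side of the threshold or, for a count, stayed within 1.5 times, though 2 of these, both medians near 0, changed sign. The Kif26b call in knockdown held at q below 0.01, with q recomputed in its table alone and with FPKM of at least 1, but a size limit of 0.5 on the log2(FPKM + 1) scale left 0 calls. An unadjusted p below 0.05 gave 8 kinesin genes in knockdown and 2 in the cytoplasmic rescue. For exons, an adjusted p below 0.01 dropped the Kif21a 15 nt exon from both rescues, leaving 0 in the cytoplasmic and 3 in the nuclear rescue, and the Kif1c exon from knockdown, leaving 2. In the cytoplasmic rescue the junction between the second and the third exon by coordinate, an alternative chosen after seeing the data, also left 0. After subtraction of the median of all genes with FPKM of at least 1, the member medians were 0.13 in knockdown, 0.02 in the cytoplasmic rescue and 0.00 in the nuclear rescue; both rescue medians lay below 0 as deposited. No paired analysis was possible because the columns hold 1 value per group and carry no replicate number. Leaving out a replicate was not run for the same reason. The number of samples and the unknown depth limit precision.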
